A study of Mus musculus with 6 samples.

Results

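IL-25 is a cytokine of the IL-17 family that is made by tuft cells, the chemosensory cells of mucosal epithelia, and it acts through a receptor built from the IL-17RB and IL-17RA chains. In the gut, IL-25 prompts type 2 innate lymphoid cells to release IL-13, and IL-13 signals back to the epithelium through IL-4Rα and IL-13Rα1 with STAT6 as the transcription factor. TSLP is another epithelial cytokine of type 2 immunity and binds CRLF2 together with the IL-7 receptor α chain, and IL-4 and IL-13 are made mainly by lymphocytes, mast cells and basophils. Tuft-like cells also occur in the thymic medulla, as one of the forms of medullary thymic epithelial cell (mTEC). Here 10 genes of this circuit, Il25, Il17rb, Il17ra, Il17re, Il4ra, Il13ra1, Il4, Il13, Tslp and Crlf2, were followed in sorted thymic epithelium. They were found by symbol among the 52636 gene rows of the deposited count table, and all 10 had a single row and passed the filter on low counts.

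To learn what mTEC without the tuft sort markers are, the study sorted them beside tuft-like mTEC, with 3 libraries of each, from thymi of wild-type C57BL/6 mice at 6 weeks of age. Both populations bound the lectin UEA1, were low for MHCII and were gated as negative for Sca1 and CD63. CD80 is marked as negative in the sample labels and as low in the text of the study. The study gated tuft-like mTEC within cells negative for the haematopoietic marker CD45 and positive for EpCAM1, a gate that the sample labels do not list. Tuft-like mTEC carried CD117, the product of Kit, and CD66a, the product of Ceacam1, and non-tuft-like mTEC carried neither. The labels do not say whether the 3 libraries of a population came from separate animals or sorts, so p-values measure only the spread between these libraries, which may be technical.

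Values of single libraries are given in the order of replicates 1, 2 and 3. The gene counts summed to 32582788, 48369825 and 28704373 in the non-tuft-like libraries and to 20097617, 34243912 and 45928255 in the tuft-like libraries. Levels are given as CPM, read counts scaled to a common library total by TMM, a method that matches libraries on the bulk of their genes, and per kb of exon wherever genes are compared with each other. A count of 3, taken as the limit that a count of 0 allows, corresponds to between 0.0639 and 0.124 CPM, which covers counting error only. A positive log2 fold change means a higher level in tuft-like mTEC, and its standard error (SE) is approximate. Differences were called at a false discovery rate (FDR) under 0.05 in edgeR's quasi-likelihood test, adjusted over all 32496 genes tested. For a single gene an exact two-sided permutation test over 3 and 3 libraries can reach no lower p than 0.10, which is its value for Il25, Il17rb, Il4ra and Il13.

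The libraries matched their labels on tuft genes. All 11 of a list of tuft cell identity genes rose in tuft-like mTEC in edgeR's test, where 1.16% of all tested genes were called higher. Among them Dclk1, a kinase used as a tuft cell marker, rose from 28.5 ± 7.27 to 1584 ± 290 CPM (SD, n = 3), and Trpm5, the cation channel of taste transduction, rose from 105 ± 25.1 to 2076 ± 356 CPM (SD, n = 3). Pou2f3, the transcription factor that tuft cells require, rose from 118 ± 6.59 to 525 ± 176 CPM (SD, n = 3), although its call was lost without non-tuft-like replicate 2 (edgeR FDR 0.0653). The largest log2 fold changes of the list were those of Sh2d6 (6.12), Dclk1 (5.80), Alox5 (4.92) and Avil (4.38), and Avil and Gnat3 were its most abundant genes per kb. Ceacam1 rose from 12.0 ± 5.79 to 209 ± 55.4 CPM (SD, n = 3). Kit stood at 167 ± 23.2 CPM in non-tuft-like mTEC and 395 ± 82.1 CPM in their tuft-like counterparts (n = 3, SD) with an edgeR FDR of 0.0678, without overlap. It was called in 8 of 14 alternative settings, DESeq2, limma voom and the likelihood ratio test among them, and in 1 of the 6 fits that leave out a library. Transcripts of the proteins that the sort gated out were present too, Cd63 at 309 ± 47.6 and 148 ± 68.8 CPM (SD, n = 3) and Ly6a, the gene of Sca1, at 80.0 ± 27.8 and 35.2 ± 8.97 CPM (SD, n = 3) in non-tuft-like and tuft-like mTEC. Both were lower in tuft-like mTEC without overlap and were not called by edgeR's quasi-likelihood test (FDR 0.252 and 0.173), while DESeq2 called them (FDR 0.0213 and 0.0436). The epithelial genes Epcam and Krt8 were abundant in both populations, Epcam at 644 ± 367 and 691 ± 404 CPM and Krt8 at 2465 ± 478 and 3924 ± 1507 CPM (SD, n = 3) in non-tuft-like and tuft-like mTEC. Cdh1, the gene of E-cadherin, stood at 1137 ± 131 and 839 ± 168 CPM (SD, n = 3). Krt5, a keratin of basal and medullary epithelium, stood at 338 ± 79.6 CPM and 41.6 ± 51.9 CPM (SD, n = 3), without overlap, with a log2 fold change of -3.02 (SE 0.78, edgeR FDR 0.0985). DESeq2, limma voom and the likelihood ratio test called Krt5, as did 7 of 14 alternatives in all.

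The libraries differed in the share of reads that were assigned to no gene, from 19.7% in tuft-like replicate 3 to 61.6% in tuft-like replicate 1. Olfactory receptor genes, which mTEC may transcribe promiscuously at a low level, were used as a measure of background. Together 1406 such genes and pseudogenes held 721, 824 and 1722 CPM in the non-tuft-like libraries and 2506, 1457 and 279 CPM in the tuft-like libraries, in the same order as the share of unassigned reads. Their 99th percentile lay between 1.22 and 3.48 CPM per kb, depending on the library, and each of the 10 genes was set against it in the same library.

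Of the 10 genes, 2 rose in tuft-like mTEC, Il25 and Il17rb, and 0 fell, while 2.11% of all tested genes were called in either direction. At an unadjusted p under 0.05 edgeR's test also gave Il4ra, which made 3 of 10 where 8.97% of all tested genes reached that level. The tuft-like libraries lay above all non-tuft-like libraries for 3 genes (Il25, Il17rb and Il4ra) and below all of them for Il13, against 7.18% and 8.85% of all tested genes. The median log2 fold change of the 10 genes was 0.29, and that of all tested genes was 0.02. In these bulk libraries, fewer cells that carry a transcript and less RNA per cell cannot be told apart.

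**Figure D1:**
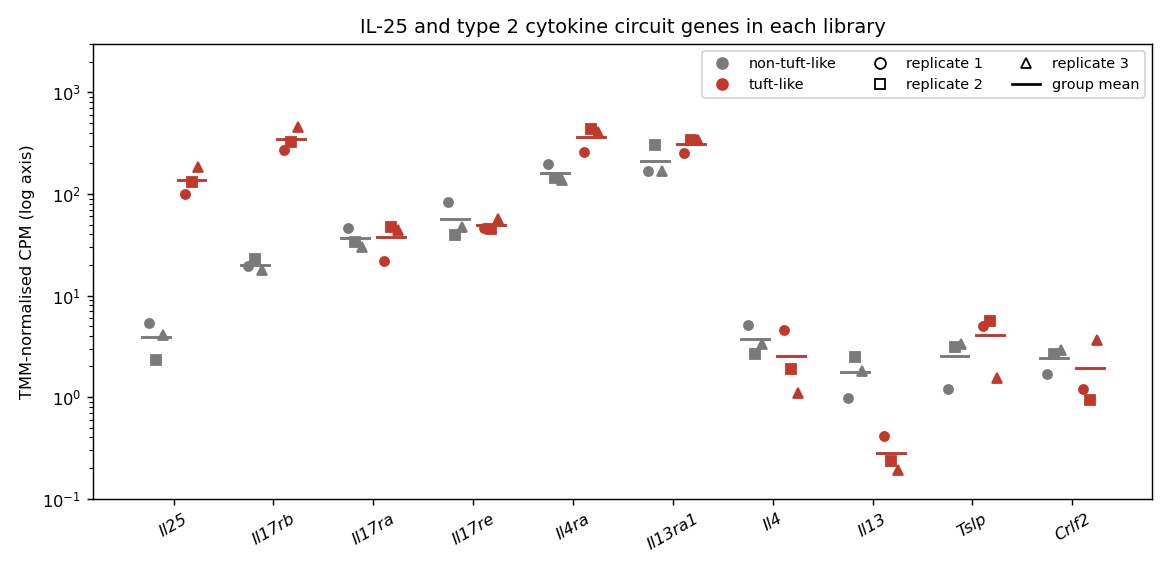
TMM-normalised CPM (log axis) of the 10 genes in each of the 6 libraries, with grey symbols for non-tuft-like and red symbols for tuft-like mTEC, a symbol shape for each replicate number and a bar at the mean of each group. Il25 and Il17rb stand apart between the populations, Il17ra and Il17re overlap, and Il4, Il13, Tslp and Crlf2 lie below 6 CPM in all libraries.

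Il25 (ENSMUSG00000040770), the ligand, lies on the plus strand of chromosome 14 of mm10, from 54932695 to 54935837, with 1064 exonic bp in 3 exon blocks that share no base with another gene. It had 169, 110 and 129 counts in the non-tuft-like libraries, or 5.33, 2.34 and 4.10 CPM. In the tuft-like libraries it had 2420, 4494 and 6700 counts, or 100.01, 131 and 185 CPM. Every tuft-like library was thus far above every non-tuft-like library, and the means of 3.92 ± 1.5 and 139 ± 43.0 CPM (SD, n = 3) differed 35.4-fold. The log2 fold change was 5.15 (SE 0.43, edgeR FDR 0.000419). Per kb, the level in non-tuft-like replicate 2 was 2.20 CPM, just below the 99th percentile of olfactory receptor genes in that library (2.24), and the other 2 non-tuft-like libraries lay above theirs.

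Il17rb (ENSMUSG00000015966), the chain that binds IL-25, lies on the minus strand of chromosome 14 between 29996135 and 30008896. It had 620, 1080 and 560 counts in the non-tuft-like libraries, or 19.6, 23.0 and 17.8 CPM. The tuft-like libraries had 6522, 11050 and 16376 counts, or 269.5, 323 and 452 CPM. The populations did not overlap, with 20.1 ± 2.64 against 348 ± 93.9 CPM (SD, n = 3), a 17.3-fold difference of means. The log2 fold change was 4.11 (SE 0.33, edgeR FDR 0.000334). All 6 libraries lay above the 99th percentile of olfactory receptor genes. Of its 3707 exonic bp, 141 are shared with Actr8 on the other strand, and without a stated strand setting reads on those bases cannot be told apart. Actr8, a subunit of a chromatin remodelling complex, had 88.9 ± 29.3 CPM in non-tuft-like mTEC and 202 ± 53.8 CPM in their tuft-like counterparts (n = 3, SD, log2 fold change 1.18, edgeR FDR 0.140).

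The start of Il17rb faces that of Chdh, the gene of choline dehydrogenase on the plus strand, with 126 bases between their first exons. Chdh was looked up after the values of Il17rb were seen. It rose from 28.8 ± 18.4 to 228 ± 43.7 CPM in tuft-like cells (n = 3, SD), with a log2 fold change of 2.98 (SE 0.45, edgeR FDR 0.00690). Its values were 49.3, 23.4 and 13.8 CPM in the non-tuft-like libraries and 199, 207 and 278 CPM in the tuft-like libraries, without overlap. With any 1 library left out it was still called (edgeR FDR up to 0.0332). The stretch between both starts is shown because both neighbours rose together. It is chr14:30008897-30009022 of GRCm38.p6, read on the minus strand towards Il17rb, from RefSeq. Capitals mark the only match in it to the AP-1 letters TGANTCA, 104 bases before the RefSeq start of Il17rb.
Il17rb upstream: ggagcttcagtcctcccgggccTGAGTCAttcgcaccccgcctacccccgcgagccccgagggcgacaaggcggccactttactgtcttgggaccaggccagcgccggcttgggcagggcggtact

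Promoter windows in the RefSeq table, from 250 bases before to 50 bases after a start, were found for 7 of the 10 genes (Il17rb, Il17re, Il4ra, Il13ra1, Il4, Il13 and Crlf2), 8 windows in all. They were searched on both strands for letters bound by factors of tuft cells and of this signalling circuit, and the AP-1 letters were added with the Il17rb sequence in view. The octamer ATGCAAAT, bound by POU factors such as POU2F3, was present in the window of Il4ra and in 1.74% of the 32851 windows of all genes. The letters TTC and GAA with 4 bases between them, preferred by STAT6, were found for Il4 (6.95% of all windows), and so were TTCNNNGAA, preferred by STAT5 (8.30%). TGANTCA was found only in the window of Il17rb (7.81% of all windows). These matches describe the letters alone. The octamer of Il4ra is shown in capitals because Il4ra is the receptor gene of the set with this match, with its surroundings, at chr7:125552121-125552150 of GRCm38.p6 on the plus strand. It begins 139 bases before the RefSeq start, inside the longer first exon that GENCODE gives.
Il4ra octamer: tggggtggggcATGCAAATaagccagcgat

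Il17ra (ENSMUSG00000002897, chromosome 6, 120463247 to 120487559), the partner chain shared by several IL-17 receptors, was not called. Its values were 46.3, 33.6 and 29.8 CPM in the non-tuft-like libraries and 21.9, 46.9 and 44.2 CPM in the tuft-like libraries. The populations overlapped, the lowest and the highest value both being tuft-like. The log2 fold change was 0.04 (SE 0.38, edgeR FDR 1.0), with a sign that depends on the scaling and on the libraries used. Per kb of exon, Il17rb and Il17ra were near each other in non-tuft-like mTEC, with ratios of Il17rb to Il17ra of 0.988, 1.6 and 1.39. In the tuft-like libraries the ratios were 28.8, 16.1 and 23.9, without overlap. Per kb, Il17rb thus stood at 22.9 ± 6.42 times (SD, n = 3) the level of Il17ra in tuft-like mTEC. This ratio depends on the lengths of all annotated exons together, 3707 bp for Il17rb and 8662 bp for Il17ra. Without division by length, the tuft-like means were 348 and 37.7 CPM. The highest ratio, 28.8, came from tuft-like replicate 1. There Il17ra, at 2.52 CPM per kb, lay below the 99th percentile of olfactory receptor genes (3.48).

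Il17re (ENSMUSG00000043088, chromosome 6, 113458484 to 113470758), which pairs with IL-17RA as the receptor of IL-17C, also overlapped between the populations. It had 84.2, 39.0 and 47.0 CPM in the non-tuft-like libraries and 46.2, 44.7 and 56.6 CPM in the tuft-like libraries. Non-tuft-like replicate 1 was the highest, and without it the log2 fold change of -0.20 (SE 0.34, edgeR FDR 1.0) became 0.18. Among all 5 IL-17 receptor genes, with a median log2 fold change of -0.20, Il17rb was the only one called, where 1.16% of all tested genes were called higher. Il17rc, the partner chain for IL-17A and IL-17F, had 67.2 ± 27.8 CPM in non-tuft-like mTEC and 41.1 ± 10.9 CPM in their tuft-like counterparts (n = 3, SD, log2 fold change of -0.71 with an edgeR FDR of 0.727). Il17rd lay under the 99th percentile of olfactory receptor genes per kb in all 6 libraries.

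Il25 was likewise the only called gene among 6 IL-17 ligands, against 1.16% of all tested genes called higher, and the median log2 fold change of the 4 tested was -0.75. Of the others, Il17a and Il17d did not pass the filter on low counts, and Il17a, Il17b, Il17d and Il17f lay under the 99th percentile of olfactory receptor genes in all 6 libraries. Il17c, an epithelial ligand of IL-17RE, had 3.39 ± 2.86 CPM in non-tuft-like mTEC and 2.43 ± 0.220 CPM in their tuft-like counterparts (n = 3, SD, edgeR FDR 1.0). Of 13 genes that signal downstream of IL-17 receptors, edgeR's quasi-likelihood test called 0, with 3 at an unadjusted p under 0.05 (8.97% of all tested genes), and DESeq2, limma voom and the likelihood ratio test each called Tnfaip3. Their median log2 fold change was -0.51. Tnfaip3, which encodes the NF-κB inhibitor A20, had 93.3 ± 18.8 CPM in non-tuft-like mTEC and 242 ± 70.2 CPM in their tuft-like counterparts (n = 3, SD), without overlap between libraries (log2 fold change 1.37, SE 0.32, edgeR FDR 0.0605). Traf3ip2, the gene of the adaptor Act1 that binds IL-17 receptors, stood at 51.9 ± 16.2 and 65.8 ± 44.8 CPM (SD, n = 3). Nfkbiz, a target gene of IL-17 signalling, stood at 184 ± 10.9 CPM in non-tuft-like mTEC and 119.9 ± 24.5 CPM in their tuft-like counterparts (n = 3, SD, log2 fold change of -0.62 with an edgeR FDR of 0.510).

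Il4ra (ENSMUSG00000030748, chromosome 7, 125552120 to 125579474), the chain common to the receptors of IL-4 and IL-13, was higher in each tuft-like library but did not pass the threshold. It had 6274, 6778 and 4299 counts in the non-tuft-like libraries, or 198, 144 and 137 CPM. The tuft-like libraries had 6300, 14981 and 14622 counts, or 260.4, 438 and 404 CPM. The means of 159.6 ± 33.4 and 367 ± 94.2 CPM (SD, n = 3) differed 2.30-fold, with a log2 fold change of 1.20 (SE 0.31, edgeR FDR 0.101). DESeq2 (FDR 0.000429) and limma voom (FDR 0.0188) called it, and in edgeR's quasi-likelihood test it passed without tuft-like replicate 1 (FDR 0.0352). Another gene, Gm44876, covers 571 of its 6002 exonic bp on the other strand, and had at most 0.604 CPM in any library.

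Il13ra1 (ENSMUSG00000017057, chromosome X, 36112110 to 36171259), which joins IL-4Rα as the type II receptor, had 167, 304 and 169.7 CPM in the non-tuft-like libraries. In the tuft-like libraries it had 254, 338 and 339 CPM. Non-tuft-like replicate 2 lay within the range of the tuft-like libraries, and the log2 fold change of 0.54 (SE 0.32, edgeR FDR 0.882) did not pass the threshold. Il2rg, the common γ chain that joins IL-4Rα in the type I receptor of lymphocytes, had 101 ± 30.2 CPM in non-tuft-like mTEC and 58.1 ± 9.08 CPM in their tuft-like counterparts (n = 3, SD, log2 fold change of -0.80 with an edgeR FDR of 0.388). Per kb, Il4ra stood at 0.653 ± 0.162 times the level of Il2rg in non-tuft-like and at 2.51 ± 0.556 times in tuft-like mTEC (SD, n = 3), without overlap between the populations.

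The order of the 10 genes by mean level per kb differed between the populations. In tuft-like mTEC Il25 came first with 130.5 ± 40.4 CPM per kb, then Il17rb with 93.9 ± 25.3, Il13ra1 with 83.6 ± 13.1 and Il4ra with 61.2 ± 15.7 (SD, n = 3). Among these 4 genes the libraries of each overlapped those of the next. Il17re followed at 8.38 ± 1.10 and Il17ra at 4.35 ± 1.59 CPM per kb (SD, n = 3), each without overlap with the gene before it. Tslp, Il4 and Crlf2 came next and overlapped with their neighbours, and Il13 was last and separate. In non-tuft-like mTEC Il13ra1 led with 57.5 ± 21.1 CPM per kb, followed by Il4ra with 26.6 ± 5.57 and Il17re with 9.66 ± 4.11 (SD, n = 3), each separate from the next. From Il17rb at 5.43 ± 0.712 CPM per kb (SD, n = 3) downwards, through Il17ra, Il25, Il4, Tslp, Crlf2 and Il13, every gene overlapped with the next.

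**Figure D2:**
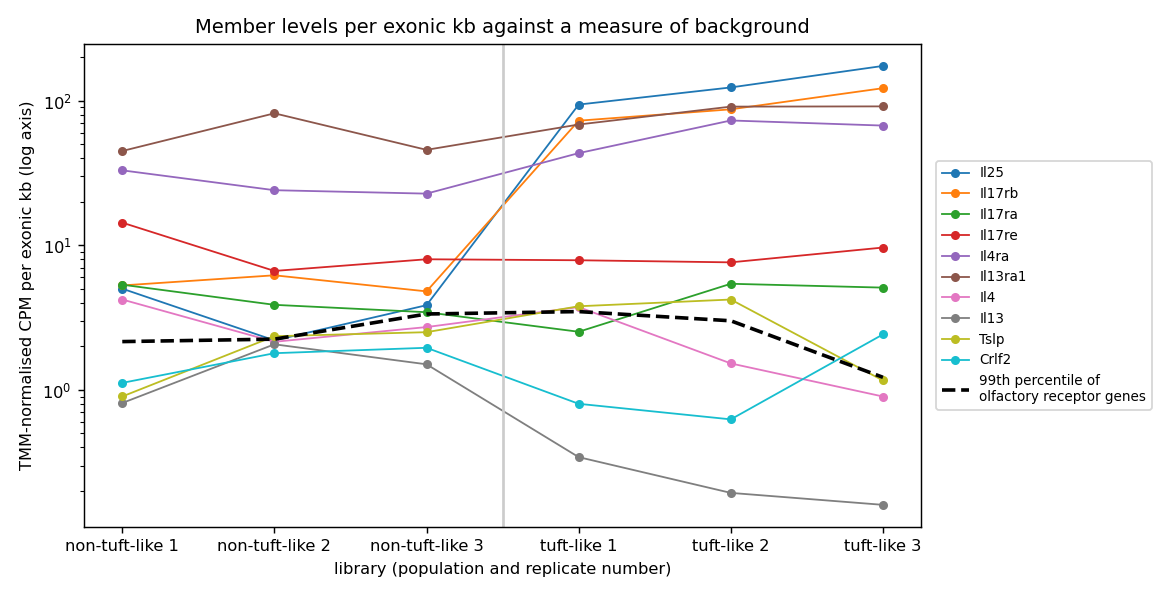
Level per exonic kb (TMM-normalised CPM, log axis) of the 10 genes in each library, with the 99th percentile of 1406 olfactory receptor genes as a dashed line. Lines only join the values of a gene. Il17rb, Il17re, Il4ra and Il13ra1 lie above the dashed line in all 6 libraries, Il25 and Il17ra in 5, and Il13 in none.

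The cytokines that act on this receptor were low in both populations. Il4 (ENSMUSG00000000869, chromosome 11, 53602982 to 53618669) had 164, 124 and 105 counts in the non-tuft-like libraries and 111, 64 and 40 counts in the tuft-like libraries. In CPM these were 5.17, 2.64 and 3.34 against 4.59, 1.87 and 1.10, which overlap. The log2 fold change was -0.56 (SE 1.11, edgeR FDR 1.0), and 2 of 6 libraries lay above the 99th percentile of olfactory receptor genes. Il13 (ENSMUSG00000020383, chromosome 11, 53631324 to 53634702) had 31, 117 and 57 counts in the non-tuft-like libraries and 10, 8 and 7 counts in the tuft-like libraries. In CPM all tuft-like libraries (0.413, 0.234 and 0.193) were lower than all non-tuft-like libraries (0.978, 2.49 and 1.81). The log2 fold change of -2.64 (SE 1.63) did not pass the threshold (edgeR FDR 0.910), and in no library did Il13 exceed the 99th percentile of olfactory receptor genes.

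Tslp (ENSMUSG00000024379, chromosome 18) had 38, 147 and 105 counts in the non-tuft-like libraries and 122, 192 and 56 counts in the tuft-like libraries. The CPM of 1.20, 3.13 and 3.34 against 5.04, 5.61 and 1.55 overlapped, with tuft-like replicates 1 and 2 the highest (log2 fold change 0.67, SE 1.10, edgeR FDR 1.0). Crlf2 (ENSMUSG00000033467, chromosome 5, 109554709 to 109558993), the specific chain of the TSLP receptor, had 1.67, 2.68 and 2.92 CPM in the non-tuft-like libraries and 1.20, 0.935 and 3.62 CPM in the tuft-like libraries. Tuft-like replicate 3 was the highest and the only library above the 99th percentile of olfactory receptor genes, and the log2 fold change was -0.34 (SE 1.26, edgeR FDR 1.0). Il7r, its partner chain, had 2.75 ± 2.02 and 1.70 ± 2.62 CPM in non-tuft-like and tuft-like mTEC (SD, n = 3) and was at 0 in tuft-like replicate 3. With standard errors above 1 on the log2 scale, changes of several fold in Il4, Il13, Tslp and Crlf2 were not detectable with this spread between libraries.

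The cells that usually make IL-4 and IL-13 were sought by their markers. A list of 12 thymocyte and T cell genes summed to 24.9, 49.2 and 37.8 CPM in the non-tuft-like libraries and to 78.1, 52.9 and 19.5 CPM in the tuft-like libraries. Ptprc, the gene of CD45, was its most abundant gene with 8.67 ± 4.58 and 23.2 ± 13.3 CPM (SD, n = 3) in non-tuft-like and tuft-like mTEC, Cd3d, Cd8a, Cd8b1, Rag1 and Ptcra were at 0 in at least 1 library, and 11 of 12 lay under the 99th percentile of olfactory receptor genes in all 6 libraries. Of 11 tested, edgeR's quasi-likelihood test, DESeq2, limma voom and the likelihood ratio test each called 0. In edgeR's test 0 had an unadjusted p under 0.05 (8.97% of all tested genes). The 7 mast cell and basophil genes summed to at most 14.9 CPM in any library, and all 7 lay under that percentile throughout. Of 5 tested, the same 4 tests called 0, and 1 had an unadjusted p under 0.05 in edgeR's test (8.97% of all tested genes). Ms4a2 was the most abundant, and all but Mcpt4 were at 0 in at least 1 library. A list of 8 genes of ILC2, Th2 and NKT2 cells summed to 195, 176 and 204 CPM in the non-tuft-like libraries and to 89.6, 75.8 and 105 CPM in the tuft-like libraries, with Rora as its most abundant gene. Of these 8 genes, 7 had a negative log2 fold change, 3 had an unadjusted p under 0.05 (8.97% of all tested genes) and 3 were lower in all tuft-like libraries than in any non-tuft-like library (8.85%). Gata3 was the only one called, where 0.951% of all tested genes were called lower, with 52.3 ± 10.4 CPM in non-tuft-like mTEC against 10.4 ± 2.04 CPM (n = 3, SD, log2 fold change of -2.33 with an edgeR FDR of 0.00749), and Il5 and Il2rb were at 0 in a tuft-like library. The gate on CD45 negative cells, which the study describes for tuft-like mTEC, is meant to leave out haematopoietic cells. Whether cells of these lists remained in either population was not tested. Their part in the values of Il4 and Il13 was not tested.

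Among 9 tested type 2 and alarmin cytokines, Il25 was the only one called, against 1.16% of all tested genes called higher, and their median log2 fold change was -1.0. Areg, a growth factor of type 2 repair, had 17.2 ± 0.651 CPM in non-tuft-like mTEC and 8.62 ± 4.97 CPM in their tuft-like counterparts (n = 3, SD, edgeR FDR 0.832). Il33, an alarmin of the IL-1 family, had 6.68 ± 4.68 and 1.48 ± 1.28 CPM (SD, n = 3) and was at 0 in tuft-like replicate 3.

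Of 13 genes of type 2 and alarmin receptors, 3 fell in tuft-like mTEC and 0 rose, where 0.951% of all tested genes were called lower. Of these 13 genes, 6 had an unadjusted p under 0.05 in edgeR's test (8.97% of all tested genes), and the median log2 fold change was -0.80. Osmr, a receptor chain for oncostatin M and IL-31, fell from 60.1 ± 9.07 to 10.3 ± 7.40 CPM (n = 3, SD, log2 fold change of -2.55 with an edgeR FDR of 0.0321). Il5ra, the specific chain of the IL-5 receptor, fell from 42.2 ± 14.9 to 9.84 ± 2.0 CPM (n = 3, SD, log2 fold change of -2.10 with an edgeR FDR of 0.0258). Il1rap, the shared chain of the IL-1 and IL-33 receptors, fell from 76.0 ± 4.61 to 27.4 ± 5.35 CPM (n = 3, SD, log2 fold change of -1.47 with an edgeR FDR of 0.0263). These calls were close to the threshold. Il5ra and Il1rap kept theirs only when the library left out was tuft-like replicate 3 (edgeR FDR up to 0.184 and 0.156 without another library). Osmr was no longer called without non-tuft-like replicate 2 (edgeR FDR 0.0927), non-tuft-like replicate 3 (0.0692) or tuft-like replicate 2 (0.115), or with scaling by library size only (0.0841). Il1rl1, the IL-33 receptor, had 6.36 ± 2.39 and 10.1 ± 2.87 CPM (SD, n = 3) and lay under the 99th percentile of olfactory receptor genes in all 6 libraries. All 7 genes of a list of macrophage and dendritic cell markers had a negative log2 fold change, and their part in the receptor values was not tested.

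**Figure D3:**
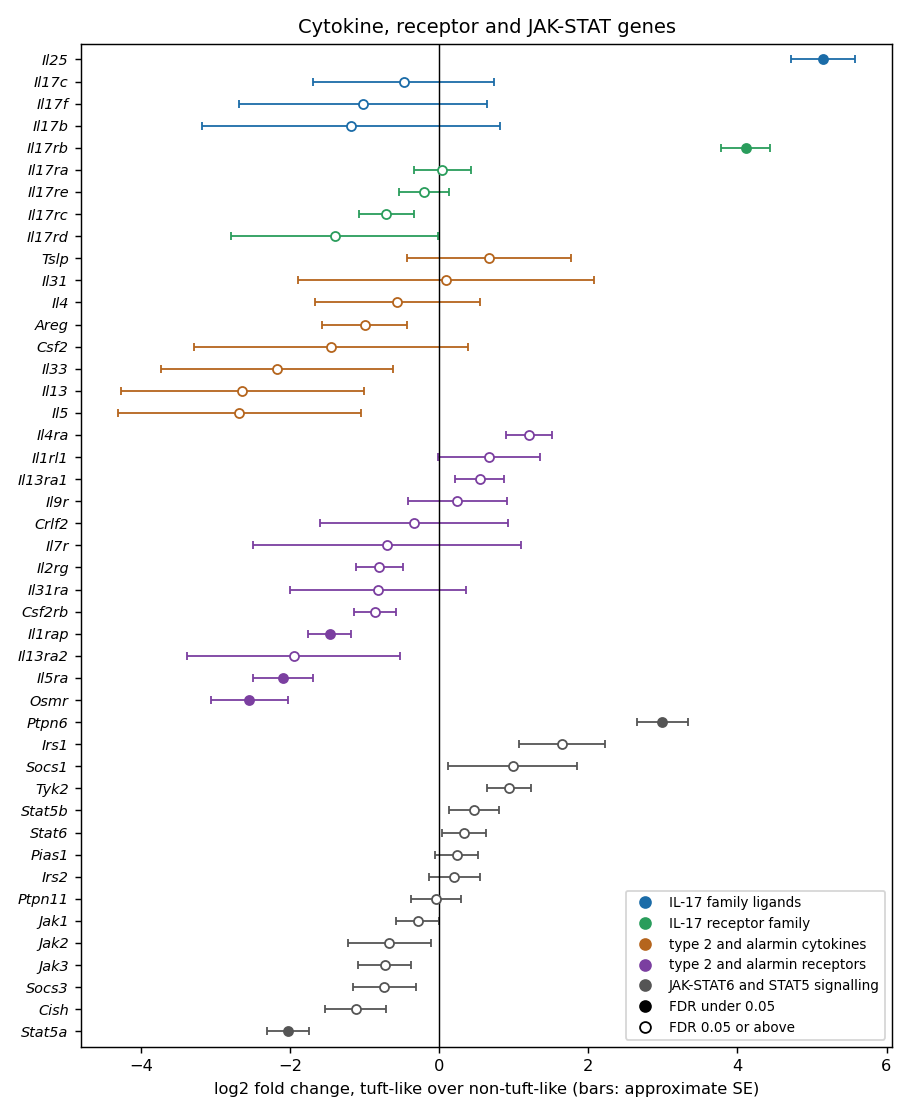
Log2 fold change of the tested ligands, receptors and JAK-STAT genes, tuft-like over non-tuft-like mTEC, with bars for the approximate SE and filled symbols for an edgeR FDR under 0.05. Il25, Il17rb and Ptpn6 are the filled points to the right of 0, and Il1rap, Il5ra, Osmr and Stat5a those to the left.

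Downstream of the receptors, 1 of 15 JAK-STAT genes rose and 1 fell, where 1.16% of all tested genes were called higher and 0.951% lower. Of the 15, 5 had an unadjusted p under 0.05 in edgeR's test (8.97% of all tested genes), and the median log2 fold change was 0.20. DESeq2, which called 1904 genes in all against 687 in edgeR's quasi-likelihood test, called Tyk2, Stat5a, Irs1 and Ptpn6. Ptpn6, the gene of the phosphatase SHP-1 that restrains JAK-STAT and other kinase signals, rose from 126 ± 11 to 1001 ± 246 CPM (n = 3, SD, log2 fold change of 2.99 with an SE of 0.34, edgeR FDR 0.00133). Stat5a, used by TSLP and IL-7 receptors among others, fell from 187 ± 17.2 to 46.0 ± 10.6 CPM (n = 3, SD, log2 fold change of -2.03 with an SE of 0.28, edgeR FDR 0.00408). Both kept their calls with any 1 library left out. Stat6, the factor of IL-4 and IL-13 signalling, had 187 ± 48.5 CPM in non-tuft-like mTEC and 235 ± 38.1 CPM in their tuft-like counterparts (n = 3, SD, log2 fold change 0.33, SE 0.29, edgeR FDR 1.0), and its libraries overlapped. Socs3, a feedback inhibitor, had 161 ± 14.7 and 96.3 ± 63.2 CPM (SD, n = 3, edgeR FDR 0.825).

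Of 18 genes known to respond to IL-4 or IL-13 in epithelium or macrophages, 16 were tested, 1 rose and 2 fell, where 1.16% of all tested genes were called higher and 0.951% lower, and the median log2 fold change was -1.69. Spdef, the transcription factor of goblet cells, rose from 2.88 ± 0.717 to 25.6 ± 7.67 CPM (n = 3, SD, log2 fold change of 3.15 with an edgeR FDR of 0.0148), a call that was lost without non-tuft-like replicate 2 (edgeR FDR 0.0817). Alox15, a lipoxygenase, fell from 256 ± 17.6 to 32.5 ± 23.2 CPM (n = 3, SD, log2 fold change of -2.98 with an edgeR FDR of 0.00934) and kept its call with any 1 library left out. Fcgbp, a mucus protein of goblet cells, fell from 3152 ± 178 to 875 ± 191 CPM (n = 3, SD, log2 fold change of -1.85 with an edgeR FDR of 0.0323). It lost its call without any of the non-tuft-like replicates 1, 2 and 3 (edgeR FDR 0.171, 0.229 and 0.0610) or tuft-like replicate 2 (0.335). Itln1, the gene of a lectin of goblet and Paneth cells, had 153 ± 53.4 CPM in non-tuft-like mTEC and 329 ± 163 CPM in their tuft-like counterparts (n = 3, SD, edgeR FDR 0.356). Of the 16 genes, 4 had a positive and 12 a negative log2 fold change, 10 had an unadjusted p under 0.05 in edgeR's test (8.97% of all tested genes), and 7 were lower in all tuft-like libraries than in any non-tuft-like library (8.85% of all tested genes). DESeq2 called 7 genes of this list, but it called 1904 genes in all against 687 in edgeR's quasi-likelihood test. The shares given for edgeR's test are therefore no background for that count. Ccl11, the chemokine eotaxin, had 48.4 ± 6.94 and 3.37 ± 4.54 CPM (SD, n = 3, log2 fold change of -3.84, edgeR FDR 0.125) and was called by DESeq2, limma voom and the likelihood ratio test. Clca1, a secreted protein of goblet cells, had 207 ± 124 and 555 ± 232 CPM (SD, n = 3, log2 fold change of 1.42, edgeR FDR 0.242) and was called by DESeq2 and limma voom. Many of these genes answer to other signals too. The sum of 7 macrophage and dendritic cell markers, with Lyz2 as the most abundant, was also lower in tuft-like mTEC. It was 349, 302 and 217 CPM in the non-tuft-like and 187, 129.8 and 188 CPM in the tuft-like libraries. All 7 had a negative log2 fold change, and edgeR's quasi-likelihood test called 1 of them lower, Cd68 (0.951% of all tested genes). The part of these markers in the values above was not tested.

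The genes whose pattern over the 6 libraries was most like that of Il25 and Il17rb were found by the root mean square (RMS) difference of log2(CPM + 1), centred on the mean of each gene, among 12336 tested genes with at least 10 CPM in the higher population. For Il25 the nearest were Bmx, a Tec family kinase (RMS difference 0.221), the bitter taste receptor gene Tas2r104 (0.309), Ptgs1, the gene of cyclooxygenase 1 (0.320), Tas2r102 (0.322) and Alox5ap, the activator of leukotriene synthesis (0.349). For Il17rb they were Lrmp, a membrane protein of the endoplasmic reticulum (0.134), the adaptor gene Fyb (0.143), Snhg18 (0.166), Gm28417 (0.172) and Gnat3, the taste G protein gustducin (0.174). Il17rb was number 36 for Il25 and Il25 was number 85 for Il17rb, at an RMS difference of 0.540. The ratio of Il25 to Il17rb per kb was 0.950, 0.355 and 0.803 in the non-tuft-like libraries and 1.29, 1.42 and 1.43 in the tuft-like libraries. The mean ratio in tuft-like mTEC was 1.38 ± 0.0743 (SD, n = 3). Il25 and Il17rb were lowest in tuft-like replicate 1 and highest in tuft-like replicate 3. In the same order the list of 11 tuft cell identity genes summed to 10976, 15689 and 18564 CPM in the tuft-like libraries. The gene counts of these libraries also rose in this order, and their share of unassigned reads fell (61.6, 47.6 and 19.7%). Krt8 (2609, 3594 and 5569 CPM) and Cd74 (1148, 1523 and 2512 CPM) followed this order too, while Il4ra did not (260.4, 438 and 404 CPM). The source of the shared order was not tested.

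**Figure D4:**
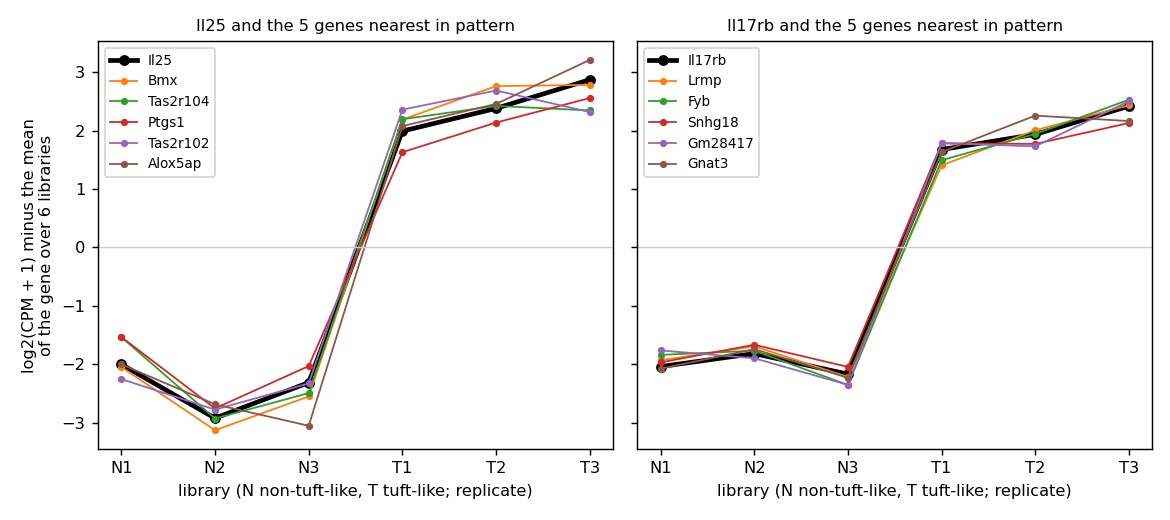
Centred log2(CPM + 1) of Il25 (left, black) and Il17rb (right, black) and of the 5 genes nearest to each over the 6 libraries (N for non-tuft-like, T for tuft-like, with the replicate number). Lines only join the values of a gene, and those on the right lie closer to Il17rb (RMS difference up to 0.174) than those on the left to Il25 (up to 0.349).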

How the data were processed

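RNA of sorted mTEC was made into ultra-low input libraries. Reads were trimmed (Trimmomatic 0.36), aligned to mm10 (STAR 2.7.3a) and assigned by HTSeq in its intersection-nonempty mode, and the authors deposited raw read counts per gene. The strand setting and annotation release are not given in the sources used here. From these counts, 5 HTSeq summary rows and 92 ERCC rows (total count 0) were left out. Symbols, coordinates and exon lengths came from GENCODE M21 (mm10), which named 52403 of 52636 gene rows.

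Low genes were removed by filterByExpr with a minimum count of 10 and a minimum total of 15. The rest were scaled by TMM and both populations compared by the quasi-likelihood test of edgeR 4.0.16 (R 4.3.3) with no covariate, with Benjamini-Hochberg adjustment over all genes. Alternatives used limma 3.58.1 and DESeq2 1.42.0. SE was taken as the absolute log2 fold change over the square root of F. Code was tested on simulated data. The 10 genes, lists and tests were chosen with earlier results of these data known. Named were the 10 genes, from each wider list the called genes (up to the 4 largest changes) and the 2 most abundant per kb, Kit and Ceacam1, and the nearest patterns. Genes of the marker lists are mostly given as counts and sums, and genes named beyond the rule were chosen for their role or after their values were seen.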

Additional observations from a re-analysis of the deposited data

How the results depend on the processing

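Alternatives were RLE factors, library size only, no filter, a minimum count of 50, DESeq2, limma voom, the likelihood ratio test, the replicate number as a block and each library left out. Il25 (log2 fold change 4.85 to 5.42) and Il17rb (3.84 to 4.27) were called under all 14, with an FDR up to 0.00147 and 0.00182. The number of genes called, 687, became 1045 with library size only, 1127 without a filter, 1904 with DESeq2 and 1236 with the likelihood ratio test, and lay between 376 (without tuft-like replicate 2) and 922 with a library left out (379 without non-tuft-like replicate 2). The number of the 10 genes called was 2 or 3. Il4ra was called in 6 of 14 alternatives, at a log2 fold change of 1.15 with library size only, 1.22 with a minimum count of 50, 1.23 with DESeq2, 1.22 with limma voom and 1.20 with the likelihood ratio test, and ranged from 1.06 to 1.40 with a library left out, called without tuft-like replicate 1. The sign of Il17ra turned with library size only (-0.028) and ranged from -0.14 to 0.32 with a library left out, and that of Il17re ranged from -0.42 to 0.18, turning without non-tuft-like replicate 1. The causes were not tested. Il13 could not be tested with a minimum count of 50, and DESeq2 gave it no adjusted p. No other gene of the 10 changed its sign or its call. Of the 10 genes, 4 lay above the 99th percentile of olfactory receptor genes in all 6 libraries and 9 above their median.

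Between libraries of the same number, deviations from the group means were not positively correlated (-0.10, -0.04 and -0.27 for numbers 1, 2 and 3). These correlations cannot show whether such libraries came from the same animals or sort, because libraries of a number also differed in their share of unassigned reads. With the replicate block 737 genes were called, Il25 had a log2 fold change of 5.18 and Il17rb of 4.09, and 2 of the 10 genes were called. Outside the 10, the block lost the calls of Fcgbp (FDR 0.461) and Cd74 (FDR 0.659), and a minimum count of 50 that of Osmr (FDR 0.0504). Beyond the limit that a count of 0 allows, up to 0.124 CPM, the spread between libraries was wide for Il4, Il13, Tslp and Crlf2, with an SE above 1 on the log2 scale.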

Other observations

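Of the lists of B cell, endothelial, and macrophage and dendritic cell markers, 1 gene each was called by edgeR's quasi-likelihood test, where 1.16% of all tested genes were called higher and 0.951% lower. Cd79b, a chain of the B cell receptor complex, rose from 8.42 ± 3.07 to 77.6 ± 27.3 CPM in tuft-like cells (n = 3, SD, log2 fold change of 3.20 with an edgeR FDR of 0.00317), and was the only one called of 5 B cell genes, of which Cd79a was at 0 in tuft-like replicate 3. These 5 genes summed to 18.4, 18.5 and 26.1 CPM in the non-tuft-like libraries and to 65.7, 101 and 102 CPM in the tuft-like libraries, with 2 positive and 3 negative log2 fold changes (median -0.085). Tek, the receptor of angiopoietins, rose from 23.4 ± 12.7 to 179 ± 42.4 CPM (n = 3, SD, log2 fold change of 2.93 with an edgeR FDR of 0.00565), and was the only one called of 6 endothelial genes, of which Emcn and Cldn5 were at 0 in at least 1 library. All 6 endothelial genes had a positive log2 fold change (median 1.07), and they summed to 37.8, 63.7 and 42.0 CPM in the non-tuft-like libraries and to 345, 173 and 231 CPM in the tuft-like libraries, in the order of replicates 1, 2 and 3. Cd68, a lysosomal protein of macrophages, fell from 39.3 ± 8.47 to 3.99 ± 0.428 CPM (n = 3, SD, log2 fold change of -3.30 with an edgeR FDR of 0.00280), the only one called of 7 macrophage and dendritic cell genes. All 7 had a negative log2 fold change (median -0.62), and they summed to 349, 302 and 217 CPM in the non-tuft-like libraries and to 187, 129.8 and 188 CPM in the tuft-like libraries, without overlap, with Lyz2 as the most abundant gene. Of 7 fibroblast genes, edgeR's quasi-likelihood test, DESeq2, limma voom and the likelihood ratio test each called 0. In edgeR's test 0 of these had an unadjusted p under 0.05 (8.97% of all tested genes). All 7 had a positive log2 fold change (median 1.17), and they summed to 53.0, 48.4 and 76.8 CPM in the non-tuft-like libraries and to 197, 91.2 and 38.8 CPM in the tuft-like libraries, which overlap. The study describes a gate on CD45 negative, EpCAM1 positive cells for tuft-like mTEC. Whether cells of these lists remained in either population was not tested. Their part in the values of the 10 genes was not tested.

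Among the other mTEC genes looked at, Aire, the regulator of promiscuous expression, fell from 292 ± 53.3 to 20.5 ± 2.56 CPM (SD, n = 3, edgeR FDR 0.000334), and Cd74, the MHCII invariant chain, fell from 8821 ± 1020.3 to 1727 ± 704 CPM (SD, n = 3, edgeR FDR 0.0372), although Cd74 was called in only 3 of the 6 fits that leave out a library (edgeR FDR up to 0.466).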
